A study of Homo sapiens with 6 samples.

Results

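Genes for the proteins of the mitochondrial ribosome were followed in PC3, an established line of prostate cancer cells taken from a bone metastasis, with and without RSM3, which the labels call a peptide. The members were the protein-coding rows of the gene count table whose symbol is MRPL or MRPS followed by a number and at most 1 letter from A to C, which took 78 of 60545 genes. Of these, 77 passed the filter on low counts. RNA was sequenced from 3 Control and 3 RSM3 samples, all cultured in RPMI-1640 medium containing fetal bovine serum, and the labels name no other agent or allele in either group. The labels used here state no dose and no duration. Nothing says that replicates were separate cultures, so the p-values measure sample-to-sample spread that may be technical.

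The mitochondrial ribosome translates the few messages of the mitochondrial genome, which encode core subunits of the respiratory chain and ATP synthase. Its rRNAs are made inside the organelle, while its proteins are encoded in the nucleus, made in the cytosol and imported. Some of these proteins have bacterial homologues and others are found only in mitochondrial ribosomes. The proteins are divided between a small subunit, which decodes the message, and a large subunit, which joins the amino acids.

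Libraries held between 14091359 and 18594251 counts. All 6 markers listed for PC3 and epithelial cells were measured: the epithelial KRT8, KRT18, EPCAM and CDH1, the mesenchymal VIM, and CD44, which is not specific to epithelium. VIM was the most abundant of them, at 854 to 1087 CPM, while EPCAM and CDH1 stood between 4.86 and 11.5 CPM, and KLK3 and KLK2, which mark luminal prostate cells, were each under 1 CPM (counts scaled to library size with TMM factors) in every library. Of 7 leukocyte markers 0 passed the filter, and their summed level was 1.21 to 2.77 CPM in Control and 0.836 to 1.20 CPM in RSM3. CD3E was at 0 in every library. Of 7 fibroblast and endothelial markers 3 passed, with summed levels of 107 to 122 CPM in Control and 82.7 to 111 CPM in RSM3 and DCN at 0 in every library. The part of these differences in the results below was not tested. RSM3 replicate 1 stood apart: across 15620 genes with a known GC content, its deviation from the mean of the libraries followed GC content with a Spearman coefficient of 0.427, against -0.331 to 0.161 in the other 5 libraries.

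No mitochondrial ribosomal protein gene passed the test between RSM3 and Control. In edgeR's quasi-likelihood test with Benjamini-Hochberg adjustment over 15773 genes, 0 of the 77 measured members rose and 0 fell at an adjusted p under 0.05, where 3.09% of all genes tested rose and 1.1% fell (4.2% in either direction). The lowest adjusted p among the members was 0.123. At an unadjusted p under 0.05 there were 5 members, or 6.49%, against 17.8% of all genes tested. DESeq2 and limma voom also called 0 members, where DESeq2 called 896 of 15773 genes tested and limma voom 668. In 13 members every RSM3 library lay above every Control library (all genes 12.9%), and in 3 the reverse held (all genes 11%). Together these were 20.8% of members, against 23.9% of all genes. A p that misses the threshold does not show equal levels, so the intervals are given as well. The 95% interval of the fold change lay within 1.5-fold in both directions for 69 members (89.6%, against 61.7% of all genes tested). It lay within 2-fold for 76, the exception being MRPS24. The members had a median level of 43.7 CPM, against 21.7 CPM for all genes tested. The part of level in the contrast of intervals was not tested.

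The fold changes were small and more often above 0 than below. The median log2 fold change of the members was 0.08, against -0.00 over all genes tested, and 55 of 77 (71.4%) lay above 0, against 49.0% of all genes. The position of both against 0 depends on the scaling. With library size alone both medians were lower, at 0.0197 for the members and -0.06 for all genes. In that fit 43 of 77 members lay above 0, against 38.4% of all genes. The range ran from -0.31 for MRPL38 to 0.48 for MRPS36.

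**Figure D1:**
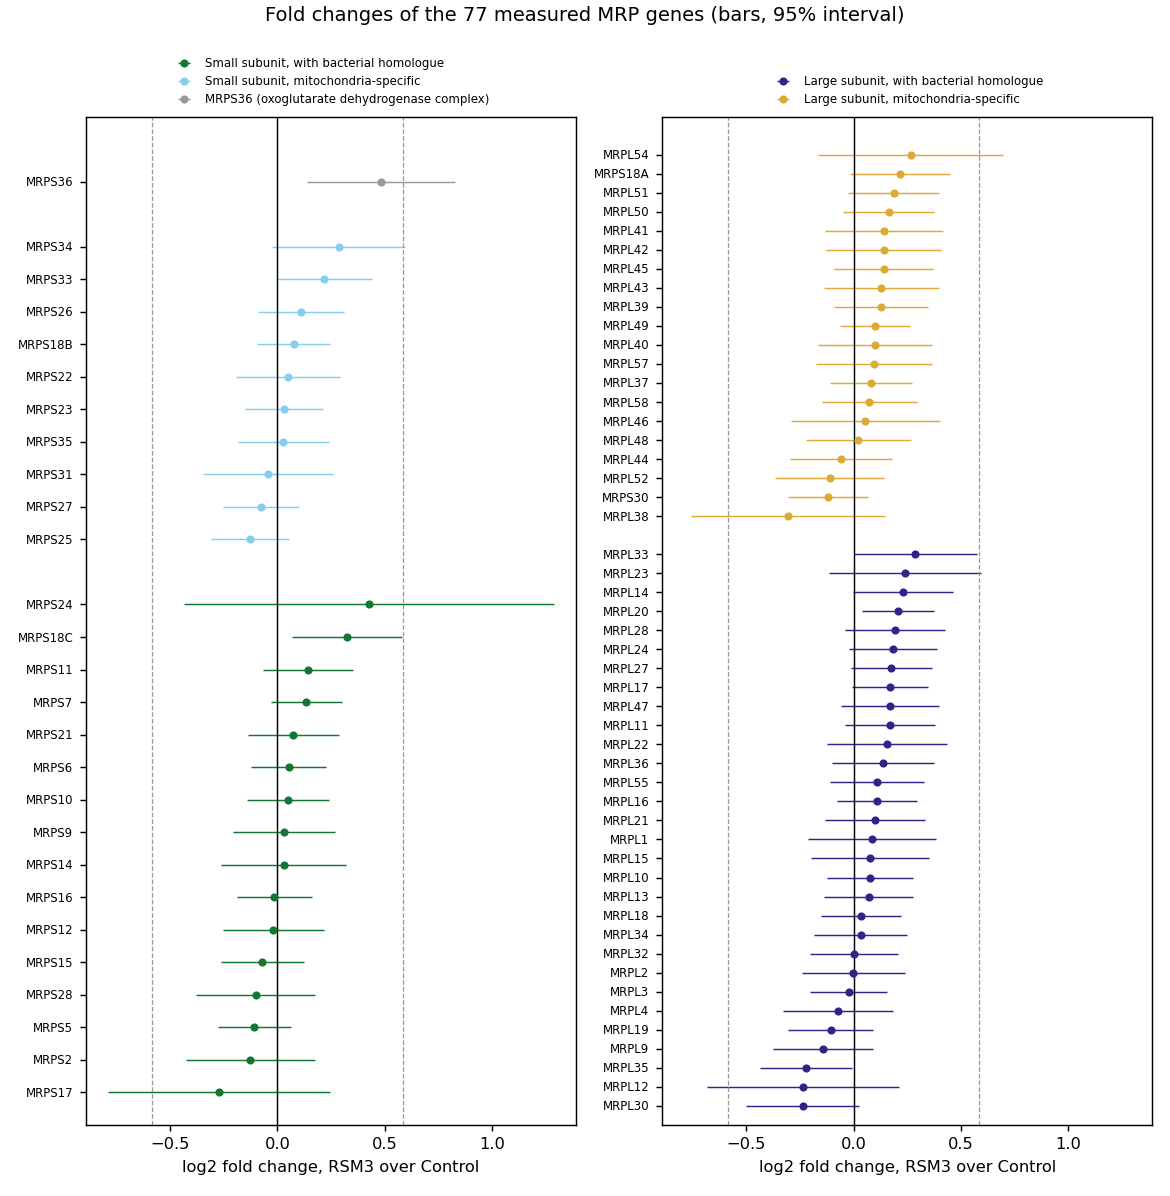
Log2 fold change of RSM3 over Control for each measured member, grouped by subunit and by whether a bacterial homologue exists (colours); bars are 95% intervals and dashed lines mark 1.5-fold. The points lie between -0.31 and 0.48, and 0 of 77 passed the adjusted threshold.

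The subunits differed little in their medians. The 26 measured small-subunit genes had a median log2 fold change of 0.03 with 16 above 0, and the 50 measured large-subunit genes had a median of 0.10 with 38 above 0. Within the small subunit, the 16 genes with a bacterial homologue had a median of 0.03 and the 10 mitochondria-specific genes 0.04. Within the large subunit, the 30 genes with a bacterial homologue had a median of 0.09 and the 20 measured mitochondria-specific genes 0.10. The difference between the subunits was not tested.

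The summed level of all 78 genes was 3593, 3746 and 3582 CPM in Control replicates 1, 2 and 3 and 3700, 3837 and 3789 CPM in RSM3. The groups overlapped, since Control replicate 2 exceeded RSM3 replicate 1. The means were 3640 ± 91.4 CPM in Control and 3775 ± 69.2 CPM in RSM3 (SD, n = 3 each), a difference of 3.71%. As a share of library counts without TMM scaling, the means were 0.371% ± 0.00892 and 0.370% ± 0.0184, so the direction of this small difference rests on the scaling. The large-subunit sum was 2135, 2239 and 2106 CPM without RSM3 (2160 ± 69.7) and 2243, 2284 and 2267 CPM with it (2265 ± 20.4). Each RSM3 library lay above each Control library there, by a narrow margin for RSM3 replicate 1, but without TMM scaling the groups overlapped, at 0.220% ± 0.00683 and 0.222% ± 0.00898 of library counts. The small-subunit sum was 1473 ± 24.8 and 1500 ± 48.5 CPM.

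**Figure D2:**
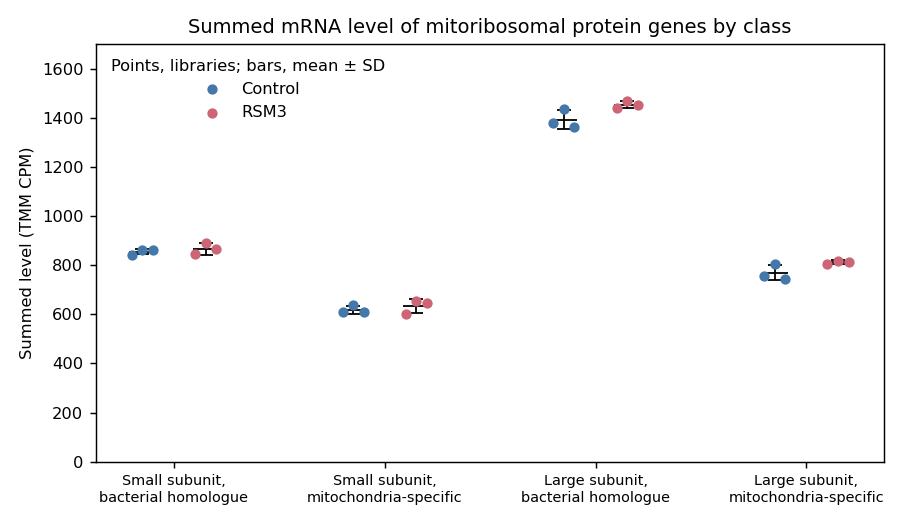
Summed TMM-scaled CPM of the member genes by class, with MRPS36 left out; points are the 3 Control (blue) and 3 RSM3 (red) libraries and bars the mean ± SD. Among large-subunit genes with a bacterial homologue the RSM3 libraries lie between 1441 and 1466 CPM and the highest Control library is at 1436 CPM, and in the other classes the groups overlap.

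MRPS36 (ENSG00000134056, chr5:69217760-69230129, plus strand, GRCh38) had the largest fold change and the smallest p. The product, despite its name, is assigned to the 2-oxoglutarate dehydrogenase complex of the citric acid cycle. Its level was 7.72, 7.67 and 7.47 CPM in Control and 9.47, 9.59 and 12.9 CPM in RSM3. The groups did not overlap, and RSM3 replicate 3 was highest. The log2 fold change was 0.48 ± 0.16 (SE), with an unadjusted p of 0.00979 and an adjusted p of 0.123 in edgeR's quasi-likelihood test.

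In the small subunit, MRPS18C (ENSG00000163319, chr4:83455932-83469735, plus strand) came next. It is 1 of 3 human paralogs of the bacterial S18 protein. Its level was 14.3, 13.9 and 16.0 CPM in Control and 17.1, 19.1 and 19.2 CPM in RSM3. Every RSM3 library lay above every Control library, and the log2 fold change was 0.33 ± 0.12 (adjusted p = 0.164). Its exons overlap those of ABRAXAS1 on the opposite strand over 40.2% of their length, and the strand setting of the counting is not given. ABRAXAS1 held 204, 221 and 224 counts in Control and 112, 159 and 182 in RSM3, so each RSM3 library was below each Control library there. Its paralog MRPS18B stood at 84.7 ± 3.84 CPM in Control and 89.4 ± 1.85 in RSM3, with overlapping groups and a log2 fold change of 0.08. The third paralog, MRPS18A, is placed in the large subunit. It stood at 30.5, 35.7 and 35.6 CPM in Control and 44.2, 37.3 and 37.1 CPM in RSM3. The groups did not overlap, and the log2 fold change was 0.22 (adjusted p = 0.320). The exons of MRPS18A overlap those of RSPH9 on the opposite strand over 47.0% of their length. RSPH9 held 28, 24 and 29 counts in Control and 5, 8 and 17 in RSM3.

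Other small-subunit genes lay on both sides of 0, and 0 passed the test. MRPS33, a mitochondria-specific protein, stood at 28.4, 31.2 and 26.8 CPM in Control and 33.4, 35.6 and 31.2 CPM in RSM3 (log2 fold change 0.22, adjusted p = 0.300). MRPS12, the homologue of the bacterial decoding-site protein S12, stood at 27.9 ± 2.62 and 27.5 ± 1.98 CPM (log2 fold change -0.02). MRPS16 had the highest CPM of the members, 201 ± 4.29 in Control and 199 ± 17.0 in RSM3. In MRPS5, the homologue of bacterial S5, all 3 RSM3 libraries lay below Control, at 74.3, 78.4 and 76.3 CPM against 69.3, 72.1 and 71.0 CPM (log2 fold change -0.11, adjusted p = 0.529). MRPS34 varied within Control: its level was 45.3, 49.7 and 31.3 CPM in Control and 55.6, 47.9 and 50.3 CPM in RSM3. Control replicate 3 was the low library, and RSM3 replicate 2 lay below Control replicate 2.

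In the large subunit, MRPL20 (ENSG00000242485, chr1:1401908-1407313, minus strand) had the smallest p. It stood at 75.7, 76.9 and 75.9 CPM in Control and 84.2, 89.9 and 89.8 CPM in RSM3. The Control libraries lay close together and below each RSM3 library, and the log2 fold change was 0.21 ± 0.08 (adjusted p = 0.175). MRPL33 (ENSG00000243147, chr2:27771717-27988087, plus strand), a homologue of bacterial L33, stood at 13.9, 13.8 and 14.4 CPM in Control and 16.6, 19.9 and 14.9 CPM in RSM3. RSM3 replicate 3 came close to Control, and the log2 fold change was 0.29 ± 0.13 (adjusted p = 0.278). MRPL17 stood at 89.4, 102 and 91.2 CPM in Control and 110, 106 and 104 CPM in RSM3 (adjusted p = 0.300). MRPL27 stood at 46.7, 50.0 and 45.0 CPM in Control and 51.5, 54.7 and 53.8 CPM in RSM3 (adjusted p = 0.322). In both genes the groups did not overlap. MRPL14 overlapped because of 1 library: it stood at 52.8, 48.2 and 50.9 CPM in Control and 49.4, 63.5 and 64.9 CPM in RSM3, with replicate 1 the low one.

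MRPL35 (ENSG00000132313, chr2:86199355-86213794, plus strand) had the smallest p among members lower in RSM3. It stood at 46.2, 47.6 and 47.4 CPM in Control and 35.5, 41.1 and 44.3 CPM in RSM3. All 3 RSM3 libraries lay below Control, with replicate 1 the lowest, and the log2 fold change was -0.22 ± 0.10 (adjusted p = 0.259). MRPL30 was the remaining member with every RSM3 library below Control (log2 fold change -0.24).

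**Figure D3:**
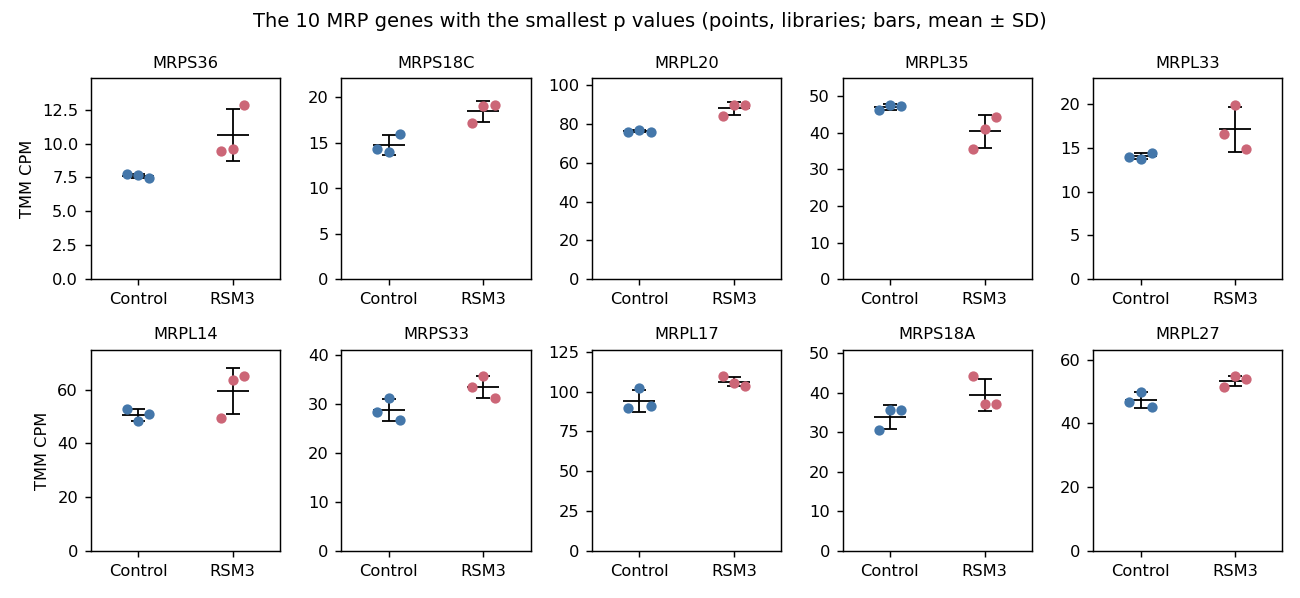
TMM-scaled CPM in each library for the members with the smallest p; points are single libraries, bars the mean ± SD, and each axis starts at 0. MRPS36 ranges from 7.47 to 7.72 CPM in Control and from 9.47 to 12.9 CPM in RSM3.

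The L7/L12 stalk, which recruits translation factors to the large subunit, was represented by MRPL10, MRPL11 and MRPL12. MRPL10 stood at 70.3 ± 1.06 CPM in Control and 74.2 ± 8.29 in RSM3 (log2 fold change 0.08). MRPL11 stood at 43.2 ± 2.85 and 48.6 ± 3.88 CPM (0.17). MRPL12 stood at 9.57 ± 1.18 and 8.06 ± 2.58 CPM (-0.24). The groups overlapped in all 3. MRPL58, a peptidyl-tRNA hydrolase that is also built into the large subunit, stood at 49.0 ± 2.54 and 51.7 ± 6.49 CPM (0.07).

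MRPL53 (ENSG00000204822, chr2:74471958-74473322, minus strand) held 0 counts in every library, which allows a level of up to 0.161 to 0.213 CPM at 3 counts per library, for counting error alone. In GENCODE 29, 45.2% of its exonic bases are shared with CCDC142 on the same strand, which held 256 to 453 counts. Levels between genes were compared as CPM per kilobase of the principal transcript. The highest were MRPS6 at 116, MRPL20 at 114, MRPL13 at 81.4, MRPS7 at 77.2 and MRPS16 at 75.9 CPM per kilobase. The lowest measured were MRPS24 at 1.63, MRPS17 at 2.56, MRPL42 at 3.65, MRPL38 at 3.66 and MRPL22 at 4.87, and the median was 29.2. Neighbours in this order rarely separated: in 75 of 77 adjacent pairs the ranges over the 6 libraries overlapped. The order depends on the length used. With all annotated exons in place of the principal transcript, 1 of the top 5 stayed. Of the bottom 5 of all 78 members, which include MRPL53 and not MRPL22, 4 stayed. MRPL42 and MRPL22 left the 5 lowest measured. MRPL42 is assigned a principal transcript of 15582 bases, and its CPM was 54.2 ± 3.82 in Control.

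Some of the lowest levels belonged to genes with shared exons. At a share of at least 20% on the same strand, a limit chosen after the values were seen, there were 7 members: MRPL12, MRPL33, MRPL38, MRPL53, MRPS17, MRPS24 and MRPS28. Their median level was 3.66 CPM per kilobase, against 29.9 for the 62 members that share none, and 4 of the 7 were among the 10 lowest. The 9 members that share less than 20% but more than 0 had a higher median of 42.1 CPM per kilobase and include MRPS6 and MRPL20, so the level did not fall steadily with the share. For MRPL12 the share was 68.2%, and for MRPS24 it was 23.2%, with the readthrough gene URGCP-MRPS24. How the authors' counting treated reads in shared exons is not given, so the levels of these genes are uncertain and their order was not tested. Pseudogenes took little: 79 rows carry a mitochondrial ribosomal protein pseudogene name, 21 had a count, and together they held 0.305 counts per 100 member counts, of which MRPL45P2 held 64.6%.

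**Figure D4:**
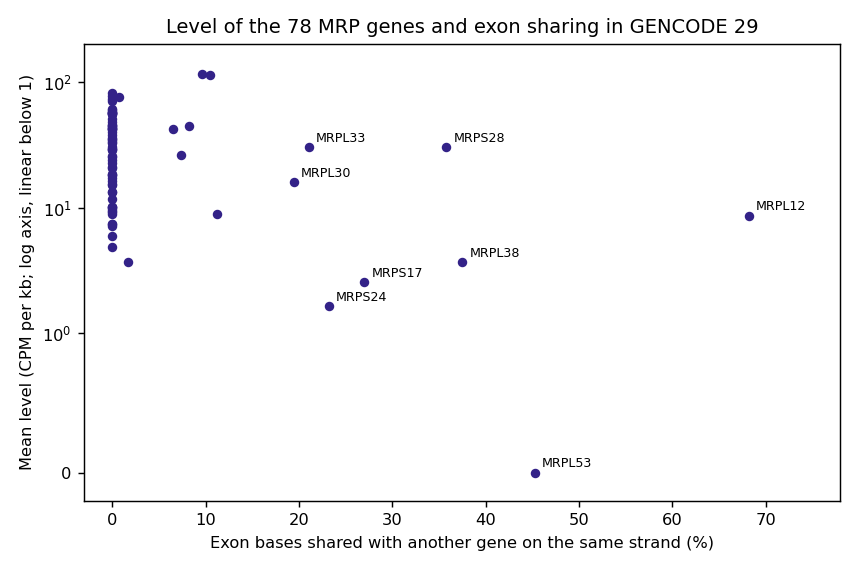
Level per kilobase (log axis, linear below 1) against the percent of exonic bases shared with another gene on the same strand, for each member. Members with at least 20% shared have a median of 3.66 CPM per kilobase, and those with none a median of 29.9; the 9 in between have a median of 42.1.

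Libraries of the same group differed from each other across the members. The median log2 deviation of the members from their mean was -0.05, 0.02 and -0.07 in Control replicates 1, 2 and 3 and -0.02, 0.06 and 0.03 in RSM3. RSM3 replicate 1 was the highest library for 21 members and the lowest for 23, and its deviations had an SD of 0.195, against 0.112 to 0.136 in the other libraries. Its Spearman coefficient with GC content over the 77 members was 0.397, a description over genes that share 1 library. In RSM3 replicate 1 the 39 members at or above the median GC content deviated by a median of 0.10, and the 38 below it by -0.10. The median log2 fold change was 0.10 in the first set and 0.04 in the other. Control replicate 3 ran the other way, with a coefficient of -0.425.

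**Figure D5:**
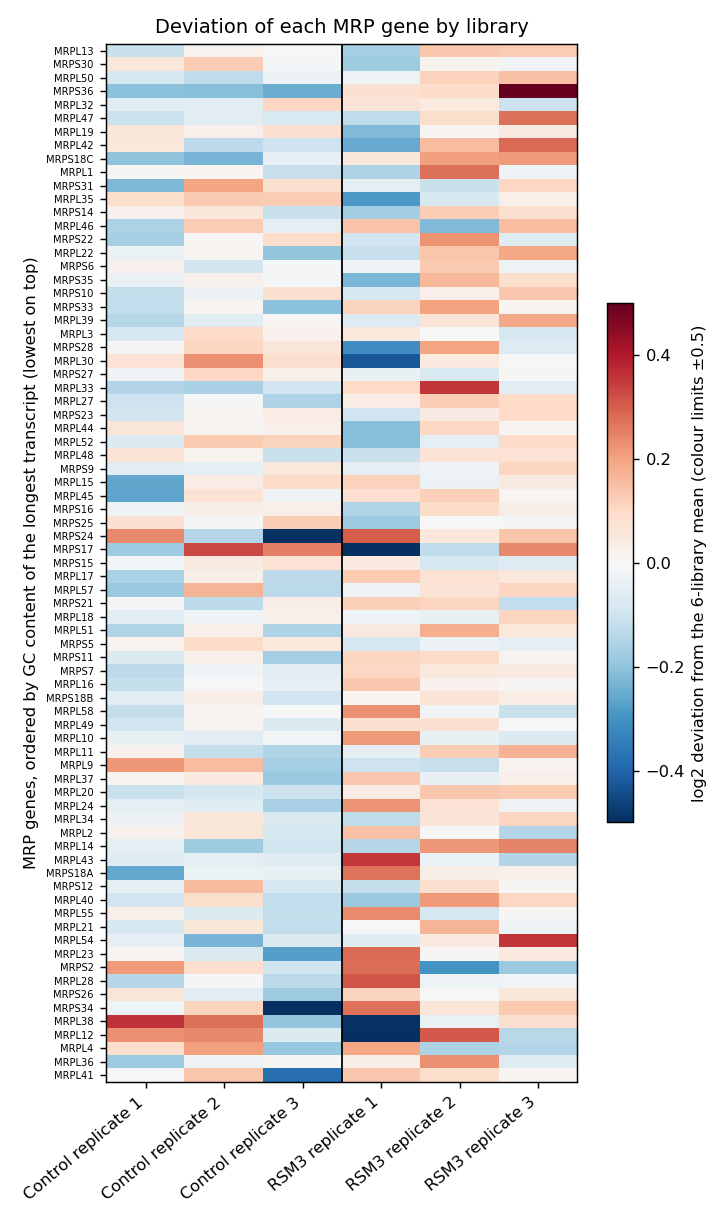
Log2 deviation of each measured member (rows, ordered by GC content with the lowest on top) from its mean over the 6 libraries (columns); red is above and blue below the mean, with colours limited at 0.5. RSM3 replicate 1 is mostly blue in the upper rows and mostly red in the lower ones, with a spread of 0.195 (SD).

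Calls appeared when RSM3 replicate 1 was left out. In that fit 6 members rose, or 7.79% against 8.83% of all genes tested: MRPL14 (log2 fold change 0.34, adjusted p = 0.00187), MRPL20 (0.24, adjusted p = 0.0128), MRPL42 (0.28, adjusted p = 0.0130), MRPS36 (0.56, adjusted p = 0.0182), MRPL47 (0.27, adjusted p = 0.0242) and MRPS18C (0.38, adjusted p = 0.0373). MRPS2 fell (-0.32, adjusted p = 0.0155), 1.30% of members against 5.77% of all genes. With a correction for GC content and length, which keeps all 6 libraries, MRPS34 (0.36, adjusted p = 0.0234) and MRPS36 (0.49, adjusted p = 0.0496) rose, 2.60% of members against 7.5% of all genes, and 0 fell against 2.82%. MRPS36 was called in both of these fits. With the replicate block added to the correction, MRPS36 was not called (adjusted p = 0.0717) and MRPS34 alone was (0.37, adjusted p = 0.0193). There 1 of 77 members rose and 0 fell, where 1052 of 15773 genes tested rose and 403 fell. Over the 16 alternatives the adjusted p of MRPS36 ran from 0.0182 to 0.458. In the fit without RSM3 replicate 1 and in that with the correction alone, the share of members called was below that of all genes tested.

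The rest of the mitochondrial translation system was, in the genes listed, also without calls. Of 5 mitoribosome subunits with other names, 27 assembly factors, 16 translation factors, 17 mitochondrial aminoacyl-tRNA synthetases and 6 genes of mitochondrial transcription, 0 rose and 0 fell in edgeR's test, and 0, 4, 1, 3 and 0 of them had an unadjusted p under 0.05, where 17.8% of all genes tested did and 3.09% rose and 1.1% fell. Median log2 fold changes were 0.07, -0.01, 0.10, -0.06 and 0.02 in that order. GADD45GIP1, a large-subunit protein, stood at 78.1, 79.5 and 32.1 CPM in Control and 93.3, 80.9 and 69.9 in RSM3, so Control replicate 3 was low as it was for MRPS34. Of the 27 assembly factors, 13 had a log2 fold change above 0. NOA1, a GTPase of ribosome assembly, was lower in all 3 RSM3 libraries, at 45.1 ± 2.31 against 37.6 ± 2.43 CPM (log2 fold change -0.26, adjusted p = 0.160). MTG1 was also lower in all 3 (-0.37, adjusted p = 0.224). TFB1M was higher in all 3 (0.40, adjusted p = 0.198), and NSUN4 was higher with overlapping groups (0.26, adjusted p = 0.254). Of the 17 synthetases, 5 had a log2 fold change above 0. VARS2, the mitochondrial valyl-tRNA synthetase, stood at a low level, 1.97 ± 0.143 CPM in Control and 0.922 ± 0.218 CPM in RSM3 (-1.07, adjusted p = 0.102).

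Among 9 measured regulators of nuclear genes for mitochondria, MYC rose and 0 fell, where 3.09% of all genes tested rose and 1.1% fell. At an unadjusted p under 0.05 there were 4 of the 9, against 17.8% of all genes. MYC, a transcription factor that raises ribosome and mitochondrial gene expression in many cells, stood at 96.9, 101 and 95.2 CPM in Control and 131, 118 and 119 CPM in RSM3. The groups did not overlap, and the log2 fold change was 0.33 ± 0.08 (adjusted p = 0.0334). ESRRA, a nuclear receptor of mitochondrial gene expression, stood at 45.1 ± 1.65 and 37.4 ± 0.0894 CPM (-0.27, adjusted p = 0.121). The regulator gene NRF1 stood at 21.0 ± 0.256 and 25.2 ± 0.504 CPM (0.26, adjusted p = 0.186). The 13 mitochondrially encoded mRNAs had summed levels of 35092, 31227 and 30286 CPM in Control, against 44125, 30021 and 32137 CPM in RSM3, with 0 called and 1 at an unadjusted p under 0.05. RSM3 replicate 1 was the high library there.

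Promoters were compared because the members are a set with a shared function. RefSeq promoters on GRCh38.p14, from 250 bases before to 50 after the first listed start, were found for 69 of 78 members and 10333 other tested protein-coding genes. Motifs were sought on both strands. The ETS core CCGGAAG was in 42.0% of member promoters against 18.9% of the others, and the YY1 core AAGATGG in 33.3% against 7.20%. The YY1 core followed directly by CGG was in 18.8% against 2.7%. The NRF1 motif, searched as GCGCA, any base, then GCGC (11.6% against 11.5%) and the GC box GGGCGG (60.9% against 70.6%) were not more frequent. The median log2 fold change was 0.10 for members with the ETS core and 0.07 without, and 0.14 and 0.07 for the YY1 core. For the YY1 core followed by CGG it was 0.08 both with and without. These matches are letters in a window, not sites shown to be bound. The YY1 core holds the letters ATG, and the window runs 50 bases past the start. Overlap of its matches with coding starts was not tested.

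Of the 13 members with the YY1 core followed by CGG, 10 have it after the start and 11 on the gene's strand. The 6 windows below show how the motif sits in genes of both subunits with differing fold changes; capitals mark the motif.
MRPS18A: taggtttttgAAGATGGCGGccctcaaggc
MRPS18B: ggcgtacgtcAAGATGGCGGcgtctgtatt
MRPS10: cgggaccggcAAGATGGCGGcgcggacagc
MRPL50: gatctcatcgAAGATGGCGGcgcgatctgt
MRPL42: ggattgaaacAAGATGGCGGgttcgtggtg
MRPL38: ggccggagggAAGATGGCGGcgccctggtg
The windows are, in that order, chr6:43687763-43687792 (minus), chr6:30617853-30617882 (plus), chr6:42217833-42217862 (minus), chr9:101398576-101398605 (minus), chr12:93467512-93467541 (plus), chr17:75904859-75904888 (minus), each written on the gene's strand. Their log2 fold changes were 0.22 for MRPS18A, 0.08 for MRPS18B, 0.05 for MRPS10, 0.16 for MRPL50, 0.14 for MRPL42 and -0.31 for MRPL38, and 0 of the 6 passed the test.

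The promoters of the ribosomal genes with the smallest p that have an entry are shown whole, since they differ in motif content; capitals mark the ETS core or the YY1 core.
MRPS18C: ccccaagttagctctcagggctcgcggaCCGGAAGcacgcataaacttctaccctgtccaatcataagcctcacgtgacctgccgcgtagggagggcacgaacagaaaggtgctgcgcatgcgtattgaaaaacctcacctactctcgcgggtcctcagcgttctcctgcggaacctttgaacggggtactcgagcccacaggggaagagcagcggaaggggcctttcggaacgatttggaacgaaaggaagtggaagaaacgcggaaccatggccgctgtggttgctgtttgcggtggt
MRPL20: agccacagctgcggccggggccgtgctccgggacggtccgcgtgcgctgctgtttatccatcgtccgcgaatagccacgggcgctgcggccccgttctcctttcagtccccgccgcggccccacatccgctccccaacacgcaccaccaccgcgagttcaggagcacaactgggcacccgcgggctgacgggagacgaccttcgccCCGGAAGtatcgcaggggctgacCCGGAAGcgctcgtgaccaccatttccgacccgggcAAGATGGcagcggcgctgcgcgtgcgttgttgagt
The MRPS18C promoter is chr4:83455808-83456107 on the plus strand and holds 1 ETS core. The MRPL20 promoter is chr1:1407244-1407543 on the minus strand and holds 2 ETS cores and 1 YY1 core. Of the 78 members, 17 (21.8%) have a protein-coding gene on the other strand starting within 1000 bases in the divergent direction. The share was 7.39% of the 19876 protein-coding genes of the count table found in GENCODE 29. That set includes genes that failed the filter on low counts, unlike the set used for the motifs. MRPS11 and MRPL46 are such neighbours of each other, with starts 34 bases apart on chromosome 15.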

How the data were processed

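RNA from 3 Control and 3 RSM3 samples was sequenced as strand-marked, poly(A)-selected libraries, per the labels' protocols. The authors deposited whole-number read counts for 60545 genes, with no normalisation applied. Per the submitters' processing notes, the build was hg38 and the tools included featureCounts, STAR 2.7.1a, fastp and DESeq2; for annotation release and strand setting, nothing is stated in the labels. Groups came from the sample titles.

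Genes were filtered with filterByExpr (minimum count 10), scaled with TMM and tested with edgeR 4.0.16 (R 4.3.3), quasi-likelihood F-test, robust, two-sided, Benjamini-Hochberg adjustment over 15773 genes, called at an adjusted p under 0.05. The common biological coefficient of variation was 10.3%. Alternatives were library size alone, size factors of DESeq2, 1 CPM in 3 libraries or no filter, DESeq2 1.42.0, limma voom 3.58.1, a replicate block, a GC and length correction (loess, span 0.5, degree 2), both together, a term for Control replicates 1 and 2, and leaving out each library. The term for Control replicates 1 and 2 leaves Control replicate 3 as the only Control library in the contrast. Scripts were tested on simulated data. Coordinates, lengths and GC came from GENCODE 29, which held 58444 of the table's genes. Members and lists were chosen with earlier results of these data known. Named members were the 10 with the smallest p, the 5 highest and 5 lowest levels per length, the MRPS18 paralogs, stalk genes, MRPS12, MRPL58, MRPS36, members failing the filter and those with a counted overlapping or near-identical copy; MRPS34, MRPL30, MRPL41, MRPL47, MRPS2, MRPS10, MRPL50, MRPS11, MRPL46 and MRPS28 were named after their values were seen.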

Additional observations from a re-analysis of the deposited data

How the results depend on the processing

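The median log2 fold change of the members was 0.08 and stayed above 0 in all 16 alternatives. It was 0.0197 with library size alone and ran from 0.0622 to 0.106 when 1 library was left out. The 662 calls over all genes became 1083 with no filter, 1628 after correcting for GC and length, 1455 when the replicate block was added to this correction, 118 with a term for Control replicates 1 and 2, and 214 to 2393 when 1 library was left out. Of the calls, 73.7% were rises with TMM and 54.8% with library size alone. The number of members that rose was 2 with the correction alone, 1 (MRPS34, with MRPS36 lost) with the correction and the replicate block, and 0 to 6 when 1 library was left out; the number that fell was 0 to 1. Replicate numbers did not pair the samples, with correlations of 0.0332, -0.0440 and 0.0535 between same-numbered libraries, and the replicate block gave 653 calls over all genes and 0 members. Over 30 named members, 462 of 480 values kept direction and side of the threshold. The sign turned in 12, none of them called. Of these, MRPS6 turned with library size alone (-0.0037). MRPL38 (0.0824), MRPS12 (0.0815) and MRPL9 (0.105) turned with the term for Control replicates 1 and 2, which sets RSM3 against Control replicate 3 alone. The rest came when 1 library was left out, where values ran from -0.00017 to 0.0812 for MRPS6, -0.0647 to 0.0527 for MRPS16, -0.0178 to 0.130 for MRPL10, -0.0675 to 0.0617 for MRPS12, -0.0283 to 0.147 for MRPL58 and -0.157 to 0.0518 for MRPS31. The cause was not tested. MRPL53 had no counts, and MRPS24, with about 1 CPM, had the only interval among the measured members that left the 2-fold range.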

Other observations

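Control replicate 3 was the lowest Control library for some members of high GC content. MRPL41, a large-subunit protein with the highest GC content of the members at 71.9%, stood at 31.8, 35.0 and 24.4 CPM in Control and 34.9, 33.8 and 32.0 CPM in RSM3. MT-RNR1, the small rRNA of the mitochondrial ribosome, stood at 415, 412 and 883 CPM in Control and 483, 439 and 444 CPM in RSM3, with the same library high.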
